A study of Mus musculus with 6 samples.

Results

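Pleiotrophin (Ptn) and midkine (Mdk) form a small family of heparin-binding growth factors, and syndecan-1 (Sdc1), syndecan-3 (Sdc3), syndecan-4 (Sdc4), nucleolin (Ncl) and receptor tyrosine phosphatase zeta (Ptprz1) are receptors or surface binding partners known for them. These 7 genes, of 17441 with a value in any library, were measured by RNA sequencing of mouse heart. Ptn was picked on its level in these same libraries, where it was highest under the label Card9 KO MI, so its values stand as a description with no test. The other 6 were chosen as the second ligand of the family and for their known roles as receptors. Earlier results of these data were known when they were chosen.

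The series compared hearts 3 days after surgery in 12-week-old male mice of C57BL/6 background, with 2 libraries in each of 3 groups. The RNA was that of the part of the heart lying below the ligature. WT sham libraries came from wild-type mice after sham surgery. WT MI libraries came from wild-type mice after myocardial infarction (MI), made by tying the left anterior descending coronary artery. The libraries labelled Card9 KO MI came from mice given as knockout for Card9, an adaptor protein of innate immune receptors, after the same ligation; no sham library carries the knockout label. Whether each library came from 1 mouse or from a pool is not given in the labels, so spread between replicates is spread between libraries. The libraries of a group are also called its pair, and no library is matched to one of another group.

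Values are FPKM, read fragments scaled to the length of the gene and to the mapped fragments of the library, a scale on which levels of different genes can be compared. The libraries list between 14935 and 15852 genes, and their depth, estimated from the spacing of low values, lies between 3.03e+06 and 4.31e+06 fragments. At that depth 3 fragments of Ptn correspond to 0.28 to 0.39 FPKM, and 3 fragments of Mdk to 0.66 to 0.94 FPKM. These floors cover counting error only. Fragment numbers given here are approximate. They take the longest coding transcript of GENCODE vM1 as the length of a gene, while the annotation behind the FPKM is not given. Pearson's r between the replicates of a group, across genes, was 0.98 for WT sham, 0.981 for WT MI and 0.98 for the pair labelled Card9 KO MI.

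Card9 itself (NCBI gene 332579) read 0.99 FPKM in WT sham replicate 1 and 1.03 in replicate 2. In WT MI it read 3.39 and, in replicate 2, 5.08, against 9.85 and then 6.94 under the knockout label. The pair labelled Card9 KO MI therefore held the highest Card9 values, with no overlap with WT MI. By limma the difference from WT sham passed the threshold, with a log2 fold change of 2.21 and an adjusted p of 0.00022. The difference from WT MI, 0.85, did not (adjusted p = 0.11). Which part of the Card9 transcript these fragments cover was not tested, and the group is named here by its label only.

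Heart muscle markers matched the labelled tissue: the summed level of 12 cardiomyocyte genes was 66290 and 67636 FPKM in WT sham, 37916 and 39518 in the WT MI pair, and 31534 and 36525 in the pair labelled Card9 KO MI. All 12 had values in each library. In bulk tissue, fewer cells of a type and less RNA per cell cannot be told apart.

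Pleiotrophin and midkine are secreted, bind the sulfated chains of proteoglycans such as the syndecans, and signal through receptors that include the phosphatase Ptprz1, the kinase Alk, low-density lipoprotein receptor-related proteins and integrins. Both are abundant in the embryo, low in most adult tissues, and known to return in injured tissue, the infarcted heart included. Syndecans carry heparan sulfate at the cell surface, and nucleolin is a nucleolar protein that can also be found at the surface.

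Of the 7 genes, 6 reached 1 FPKM in at least 2 libraries, the condition for a test; Ptprz1 did not. With Ptn left out, 5 were tested by limma among 13120 genes, and a call means an adjusted p below 0.05. Sdc1, Sdc3, Sdc4 and Ncl were at or above 1 FPKM in 6 of 6 libraries and Mdk in 5. Over all tested genes the median difference on the log2 scale came to 0.19 for WT MI against WT sham, to 0.04 between the infarct groups, and to 0.24 for the knockout label against WT sham. Rescaling the libraries moved the first median to between -0.07 and 0.06 and the last to between -0.09 and 0.09. Several differences of the 7 genes are therefore also given relative to the median of all genes. The comparison of WT MI with WT sham asks what had changed 3 days after infarction in wild-type hearts, and that between the infarct groups asks whether hearts with the knockout label differed at that time. The 3 comparisons share libraries, so their results are not independent of one another.

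In WT MI against WT sham, 5 of 5 tested genes were called higher, against 27.7% of all tested genes called higher and 9.39% called lower. In the pair labelled Card9 KO MI against WT sham, the count was again 5 of 5 higher, beside 34.8% higher and 14.3% lower among all genes. Between the infarct groups limma called 0 of 5, with 0.816% of all genes called higher and 0.587% lower. At an unadjusted p below 0.05 there were 3 of 5, Mdk and Sdc3 upward and Sdc4 downward, and 20% of all tested genes. A screen asked for a fold of at least 2 and a probability of at least 0.8 of exceeding replicate differences. It had no filter on low values, so with Ptn left out it covered 6 of the genes, Ptprz1 included. Between the infarct groups it passed 1 of 6, Mdk, with a probability of 0.843. Of the 17164 genes it listed in that comparison it passed 182, or 1.06%. In WT MI and under the knockout label against WT sham it passed 4 of 6, beside 6.97% and 10.5% of the genes listed.

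The split of all calls depends on scaling. In WT MI against WT sham 74.7% of calls were upward on the deposited scale, 60.4% after upper-quartile scaling, 61.1% after scaling without the 100 most abundant genes and 48.6% after quantile normalization. For the pair labelled Card9 KO MI against WT sham the same shares were 70.9%, 58.8%, 59% and 45.5%. The 5 tested genes were called higher under each of these 3 rescalings in both comparisons.

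**Figure D1:**
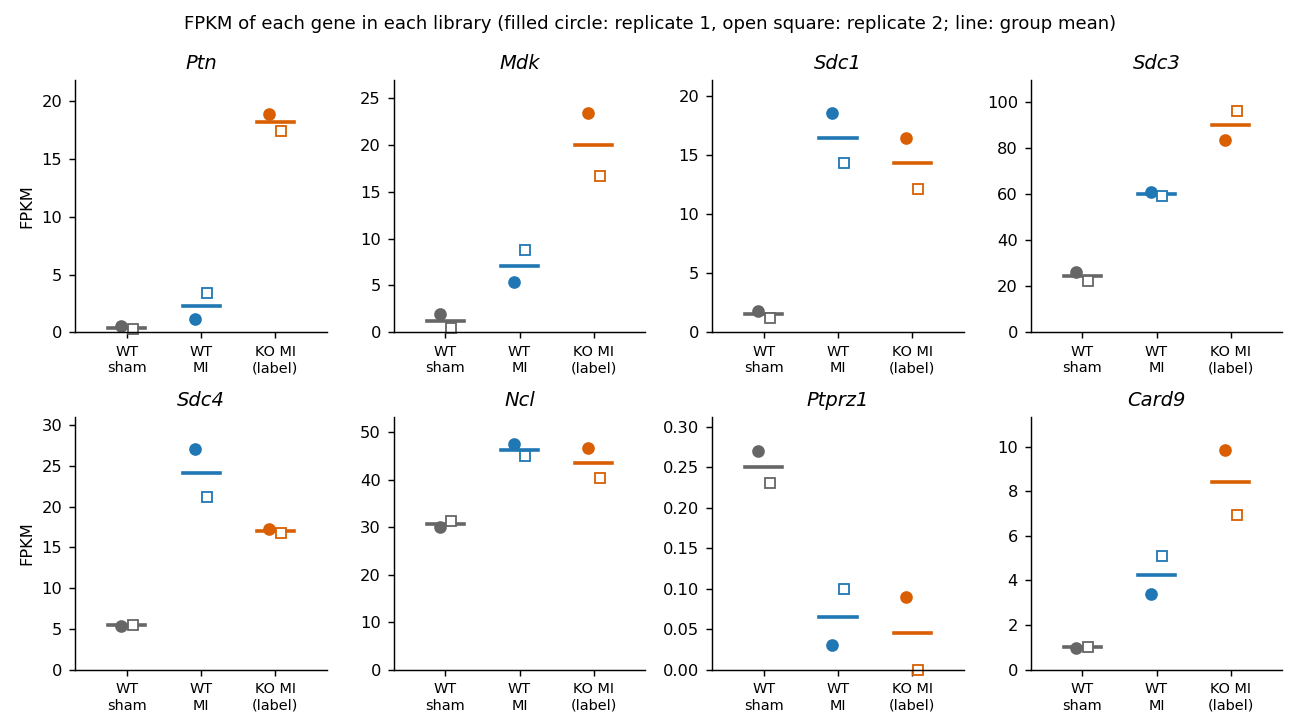
FPKM of each of the 7 genes and of Card9 in each of the 6 libraries, with filled circles for replicate 1, open squares for replicate 2 and lines for group means (n = 2). Ptn lies at 0.25 to 3.41 in the 4 wild-type libraries and at 17.42 and 18.94 in those labelled Card9 KO MI, while Ptprz1 stays at or below 0.27 in each library.

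Ptn (NCBI gene 19242) lies on the minus strand of mouse chromosome 6, at chr6:36665663-36761361 in build mm9. Its level was 0.59 and 0.25 FPKM in WT sham, 1.14 and 3.41 in the WT MI pair, and 18.94 and 17.42 in the pair labelled Card9 KO MI. The 3 groups did not overlap, and the knockout-labelled pair lay far above the other 4 libraries. Group means were 0.42 ± 0.24 FPKM (SD, n = 2) in WT sham, 2.27 ± 1.61 in the WT MI pair and 18.2 ± 1.07 in the pair labelled Card9 KO MI, and the last mean was 7.99 times the second.

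Few fragments lie behind the lower Ptn values. They correspond to about 4.75 and 1.91 fragments in WT sham and 11.6 and 33.9 in WT MI, against 207 and 182 in the pair labelled Card9 KO MI. WT sham replicate 2 is under the level of 3 fragments, and the WT MI replicates differ from each other about as much as their mean differs from WT sham. On log2(FPKM + 1) Ptn was 1.12 higher in WT MI than after sham surgery, or 0.94 beyond the median of all genes. That difference ran from 0.41 to 2.09 over the settings tried, and from 0.60 to 1.65 when 1 library was left out. Ptn was 2.64 higher under the knockout label than in WT MI, or 2.60 beyond that median. The second difference ran from 1.69 with 5 added before the logarithm to 3.13 over the settings tried, and from 2.12 to 3.16 when 1 library was left out.

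Among all listed genes Ptn stood at percentile 26.8 and 20.7 of FPKM in WT sham, at 29.2 and 42.8 in the WT MI pair, and at 77.5 and 76.4 in the pair labelled Card9 KO MI. It thus stood below the middle of the distribution in the 4 wild-type libraries and above it under the knockout label.

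Mdk (NCBI gene 17242), the second ligand, lies on the minus strand at chr2:91769962-91772454 in mm9 and meets Chrm4 on the opposite strand at its end. Its level was 2.01 and 0.42 FPKM in WT sham, 5.34 and 8.73 in the WT MI pair, and 23.32 and 16.61 in the pair labelled Card9 KO MI. The groups did not overlap and stood in the order of Ptn, which was picked for being highest under the knockout label. Group means were 1.21 ± 1.12 FPKM (SD, n = 2), 7.04 ± 2.4 and 20 ± 4.74 in that order.

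Mdk rose in WT MI against WT sham by a log2 fold change of 1.93 (standard error 0.37, 95% interval 1.07 to 2.78, adjusted p = 0.0054), or 1.74 beyond the median of all genes. Both infarct libraries were above both sham libraries, of which replicate 2 holds only about 1.34 fragments of Mdk. The estimate was 0.95 with 5 added before the logarithm and 2.73 with 0.1 added, and ran from 1.38 to 2.47 with a library left out. With all libraries kept, its adjusted p by limma was at most 0.022. In the pair labelled Card9 KO MI against WT sham Mdk rose by 3.32 (95% interval 2.47 to 4.18, adjusted p = 0.00028). That estimate ran from 2.00 to 4.24 over the settings tried.

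Under the knockout label Mdk was 1.40 higher than in WT MI (standard error 0.37, 95% interval 0.54 to 2.25), 1.35 beyond the median. Both of those libraries were above both WT MI libraries. This did not pass the correction over all genes (limma, adjusted p = 0.11). It passed with 5 added before the logarithm (1.05, adjusted p = 0.044) and in the screen; across settings the adjusted p ran from 0.044 to 0.43. Leaving out a library gave 1.09 to 1.71.

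The ratio of Ptn to Mdk in FPKM was 0.294 and 0.595 in WT sham, 0.213 and 0.391 in the WT MI pair, and 0.812 and 1.05 in the pair labelled Card9 KO MI. Mdk was thus the more abundant ligand in 5 of 6 libraries. WT sham and WT MI overlapped in this ratio, which in WT sham replicate 2 rests on about 1.91 fragments of Ptn and 1.34 of Mdk. It was highest under the knockout label, for whose level Ptn was picked. Summed, the ligands read 2.6 and 0.67 FPKM in WT sham, 6.48 and 12.1 in the WT MI pair, and 42.3 and 34 in the pair labelled Card9 KO MI.

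Sdc1 (NCBI gene 20969, plus strand, chr12:8778129-8800521 in mm9) encodes a syndecan best known from epithelia and plasma cells. Its level was 1.85 and 1.18 FPKM in WT sham, 18.57 and 14.3 in the WT MI pair, and 16.47 and 12.12 in the pair labelled Card9 KO MI. All 4 infarct libraries were high, and the infarct groups overlapped. The rise in WT MI, a log2 fold change of 2.80 (standard error 0.21, 95% interval 2.30 to 3.29, adjusted p = 0.00011), was the largest of the 5 tested genes on the deposited scale. It was 2.61 beyond the median of all genes. The estimate of this rise was 1.71 with 5 added before the logarithm and 3.38 with 0.1 added. Between the infarct groups the difference was -0.19 (95% interval -0.69 to 0.31, adjusted p = 0.67), and it was 0.01 without replicate 2 of the knockout-labelled libraries.

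Sdc4 (NCBI gene 20971, minus strand, chr2:164249747-164269387 in mm9) encodes the syndecan of focal adhesions, found in cardiomyocytes among other cells. Its level was 5.38 and 5.48 FPKM in WT sham, 27.06 and 21.19 in the WT MI pair, and 17.24 and 16.78 in the pair labelled Card9 KO MI. Here the WT MI libraries were the highest and the knockout-labelled pair lay between the other groups, with no overlap. Sdc4 rose in WT MI by 1.96 (standard error 0.14, 95% interval 1.62 to 2.29, adjusted p = 8.5e-05), or 1.77 beyond the median. It rose by 1.49 in the pair labelled Card9 KO MI against WT sham (adjusted p = 0.00015). Against WT MI it was lower there, by a log2 fold change of -0.47 (95% interval -0.80 to -0.14), which did not pass the correction (adjusted p = 0.14; 0.11 to 0.50 across settings).

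Sdc3 (NCBI gene 20970, plus strand, chr4:130348452-130382234 in mm9, with the short transcript Gm12970 opposite) encodes the syndecan first described in the nervous system as a pleiotrophin receptor. Its level was 26.43 and 22.39 FPKM in WT sham, 60.82 and 59.11 in the WT MI pair, and 83.64 and 96.04 in the pair labelled Card9 KO MI. It was the most abundant of the 7 genes in all 4 infarct libraries, and the 3 groups did not overlap. Sdc3 rose in WT MI by 1.27 (standard error 0.12, 95% interval 0.99 to 1.54, adjusted p = 0.00023), or 1.08 beyond the median. Against WT sham it rose by 1.84 under the knockout label (adjusted p = 2.9e-05).

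Sdc3 was 0.57 higher in the pair labelled Card9 KO MI than in the WT MI pair (95% interval 0.30 to 0.85, adjusted p = 0.062), in both libraries against both. The call turned on the settings: the adjusted p was 0.049 with 5 added before the logarithm and 0.046 among genes with a mean of at least 5 FPKM, and reached 0.30 with 1 library left out. The log2 estimate stayed between 0.47 and 0.67.

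**Figure D2:**
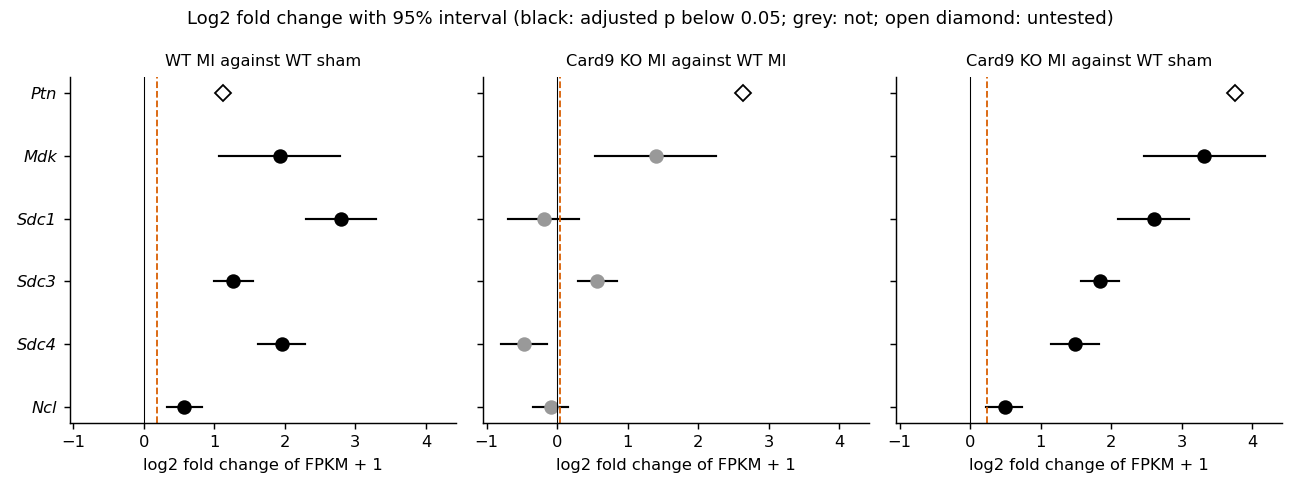
Log2 fold change of the 5 tested genes in the 3 comparisons, with 95% intervals from limma, black where the adjusted p is below 0.05 and grey where not; open diamonds give the untested difference of Ptn, and dashed lines the median of all tested genes. The 5 genes are called higher in both comparisons with WT sham, while between the infarct groups Mdk (1.40) and Sdc3 (0.57) lie above 0, Sdc4 (-0.47) below, and none is called.

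Syndecan-2 (Sdc2) completes the vertebrate syndecans and was kept with the other receptors. Its level was 21.71 and 20.57 FPKM in WT sham, 23.72 and 25.99 in the WT MI pair, and 27.3 and 27.93 in the pair labelled Card9 KO MI. The change in WT MI, 0.22, did not pass (adjusted p = 0.14), and that between the infarct groups, 0.15, did not either (adjusted p = 0.49). Under the knockout label both libraries were above both of WT sham, and Sdc2 rose there by 0.37 (adjusted p = 0.022). That call was lost under each of the 3 rescalings and in 3 of 4 fits that left out a library, with adjusted p up to 0.30. Over the 4 syndecans the summed level was 55.4 and 49.6 FPKM in WT sham, 130 and 121 in the WT MI pair, and 145 and 153 in the pair labelled Card9 KO MI.

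The composition of that sum differed between groups. Sdc2 gave 39.2% and 41.5% of it in WT sham, and between 18.2% and 21.6% in the 4 infarct libraries. Sdc4 gave 9.72% and 11% in WT sham, 20.8% and 17.6% in the WT MI pair, and 11.9% and 11% in the pair labelled Card9 KO MI. Its share was thus highest in WT MI. Sdc3 gave 47.7% and 45.1% in WT sham, 46.7% and 49% in the WT MI pair, and 57.8% and 62.8% in the pair labelled Card9 KO MI, where its share was the highest. Sdc1 gave 3.34% and 2.38% in WT sham and 7.93% to 14.3% after infarction. These shares were not tested.

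**Figure D3:**
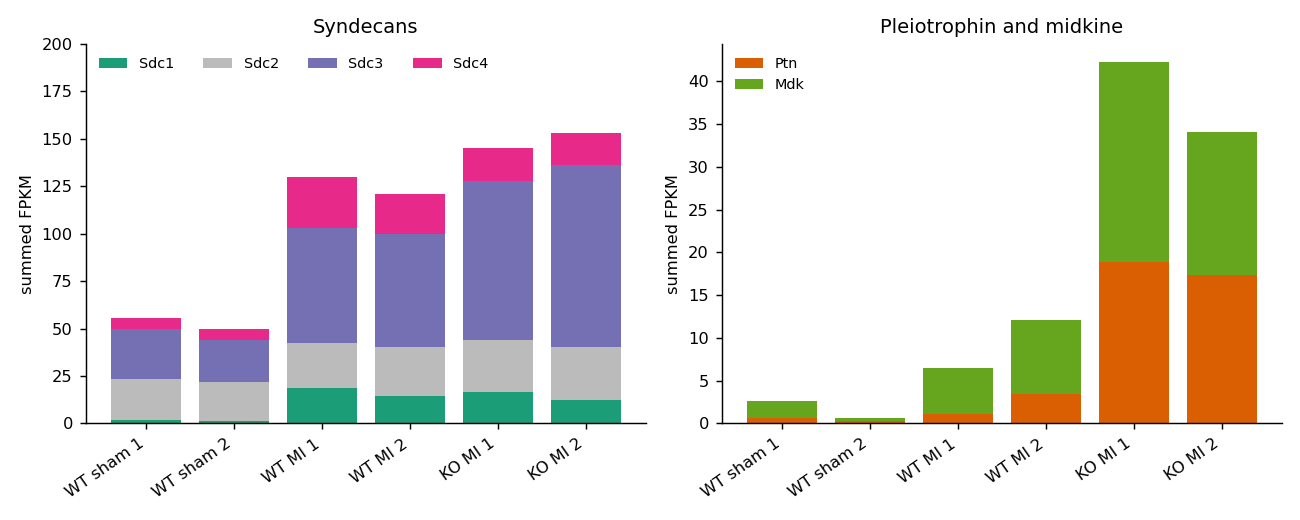
Summed FPKM of the 4 syndecans by gene, and FPKM of the 2 ligands, in each of the 6 libraries. The syndecan sum goes from 49.6 and 55.4 in WT sham to between 121 and 153 after infarction, and Sdc3 makes up 57.8% and 62.8% of it in the pair labelled Card9 KO MI.

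Ncl (NCBI gene 17975, minus strand, chr1:88241294-88256030 in mm9) encodes nucleolin and holds the small nucleolar RNA genes Snora75, SNORD20 and Snord82 on its own strand. Its level was 30.06 and 31.43 FPKM in WT sham, 47.51 and 45.01 in the WT MI pair, and 46.74 and 40.4 in the pair labelled Card9 KO MI. The infarct groups overlapped, and both lay above WT sham. Ncl rose in WT MI by 0.57 (95% interval 0.32 to 0.83, adjusted p = 0.0052) and, under the knockout label, by 0.49 (adjusted p = 0.0075). Relative to the median of all genes these are 0.39 and 0.25. The adjusted p reached 0.044 and 0.049 under the least favourable settings. Between the infarct groups the difference was -0.09 (95% interval -0.34 to 0.16, adjusted p = 0.70), and 0.02 without replicate 2 of the knockout-labelled libraries.

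Ptprz1 (NCBI gene 19283, plus strand, chr6:22825502-23002916 in mm9) encodes the phosphatase through which pleiotrophin acts in brain. Its level was 0.27 and 0.23 FPKM in WT sham, 0.03 and 0.1 in the WT MI pair, and 0.09 and 0 in the pair labelled Card9 KO MI. The sham libraries were the higher ones, at about 6.93 and 5.62 fragments, and no library after infarction held more than about 3.17. It was not tested. In the infarct libraries it lay near or below the level of 3 fragments, 0.086 to 0.095 FPKM. A fall or a small difference between these groups could therefore not be read.

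The order of the 7 levels was read in FPKM within each library. In both sham libraries it ran Ncl, Sdc3, Sdc4, then Sdc1 and Mdk, whose order differed between replicates, then Ptn and Ptprz1. In WT MI both libraries gave Sdc3, Ncl, Sdc4, Sdc1, Mdk, Ptn and Ptprz1. In the pair labelled Card9 KO MI, Sdc3, Ncl and Ptprz1 kept those places and Sdc1 was sixth in both. The 3 between them, Ptn, Mdk and Sdc4, lay between 16.61 and 23.32 FPKM and changed order between the replicates.

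Promoter windows are shown for the gene that was picked and for Sdc1 and Sdc4, of the 7 genes the receptors with the largest rises in WT MI. The RefSeq table of promoters, build GRCm38.p6, held 6 of the 7 genes, Mdk not among them. Each window is the 250 bases before the start, 5′ to 3′ on the gene's strand: Ptn at chr6:36810180-36810429 (minus), Sdc1 at chr12:8771146-8771395 (plus) and Sdc4 at chr2:164443189-164443438 (minus). Capitals mark matches on either strand to any of 6 motifs. These are the NF-κB consensus, the AP-1 motif spelled TGANTCA, and the hypoxia response core with the letters ACGTG. The other three are the GC box, which reads GGGCGG, the core promoter box of sequence TATAAA, and the E-box, searched as CANNTG.
Ptn: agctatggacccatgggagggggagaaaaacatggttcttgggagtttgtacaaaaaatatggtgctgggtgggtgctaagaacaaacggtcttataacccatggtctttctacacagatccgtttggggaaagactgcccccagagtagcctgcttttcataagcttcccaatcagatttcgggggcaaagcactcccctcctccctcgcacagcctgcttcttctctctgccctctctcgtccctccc
Sdc1: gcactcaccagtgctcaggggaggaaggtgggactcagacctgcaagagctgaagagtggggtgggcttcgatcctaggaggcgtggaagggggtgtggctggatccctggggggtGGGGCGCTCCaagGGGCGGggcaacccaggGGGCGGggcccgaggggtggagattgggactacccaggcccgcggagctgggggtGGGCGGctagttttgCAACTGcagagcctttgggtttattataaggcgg
Sdc4: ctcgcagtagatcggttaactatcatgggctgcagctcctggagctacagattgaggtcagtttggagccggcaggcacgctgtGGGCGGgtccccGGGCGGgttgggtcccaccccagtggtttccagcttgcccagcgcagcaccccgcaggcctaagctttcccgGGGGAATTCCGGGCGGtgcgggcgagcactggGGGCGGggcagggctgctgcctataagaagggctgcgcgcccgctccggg

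In these letters the Ptn window matched none of the 6 motifs, and its GC content was 52%, near the median of 52.4% over 32851 promoters. Sdc1 matched the NF-κB consensus at 134 bases before the start, GC boxes at 121, 104 and 49, and an E-box at 34, with 66% GC. Sdc4 matched the NF-κB consensus at 82 bases before the start, adjoining the GC box at 72, and had further GC boxes at 166, 154 and 50, with 68% GC. Of all promoters of this length, 7.25% held the NF-κB consensus, 6.75% the AP-1 letters, 16.6% the hypoxia core, 32.7% a GC box, 12.4% the TATA letters and 66.2% an E-box. The 3 windows not shown, of Sdc3, Ncl and Ptprz1, matched GC boxes only. A match or its absence describes these letters in this window and nothing about a factor.

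The closest patterns to Ptn were sought among 13119 other tested genes by Pearson's r of log2(FPKM + 1) over the 6 libraries. Because the libraries fall into 3 groups, such an r mostly reads the group differences, and it is given with no p. The 5 highest were St3gal2 (r = 0.9985), Nsl1 (0.9980), Psmd10 (0.9976), Sfn (0.9957) and Itga6 (0.9945), and 14 genes exceeded 0.99. Sfn, for example, read 2.36 and 2.05 FPKM in WT sham, 3.23 and 4.74 in the WT MI pair, and 11.27 and 12.94 in the pair labelled Card9 KO MI. Nsl1 and Sfn shared the wide gap between the infarct groups, while the others spanned a narrower range of levels, St3gal2 from 10.23 to 15.96 FPKM.

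For Mdk the 5 closest were Ggta1 (r = 0.9984), Cdkn3 (0.9980), Prr5 (0.9976), Itgb5 (0.9974) and Nfxl1 (0.9973), with 61 genes above 0.99. Cdkn3 read 0.84 and 0 FPKM in WT sham, 2.31 and 3.39 in the WT MI pair, and 9.91 and 7.42 in the pair labelled Card9 KO MI. Sdc1 was followed most closely by Tsku (0.9998), Lmna (0.9994) and Loxl4 (0.9986), Sdc3 by Plxnc1 (0.9989), Ifitm3 (0.9985) and Vma21 (0.9980). The closest to Sdc4 were B4galt1 (0.9990), Spns1 (0.9987) and Tmbim1 (0.9979), and the closest to Ncl were Cct2 (0.9993), Eef1e1 (0.9973) and Stk35 (0.9971). None of these short lists had a gene in common, which does not make the patterns distinct. Between the tested members themselves r was 0.98 for Sdc1 with Sdc4 and with Ncl, 0.96 for Mdk with Sdc3 and 0.93 for Ptn with Mdk. The lowest was 0.52, for Ptn with Sdc4.

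The other genes of the pathway were taken as whole lists and counted, beside the same shares over all tested genes given above. A list gene that reached 1 FPKM in infarct libraries alone, as Lrp8, Itgb3 and Hpse did, could only be higher there, so these counts describe the lists and are no support for a shared change. Without such genes those called higher in WT MI were 5 of 9 other receptors, 4 of 17 genes of heparan sulfate synthesis, 9 of 12 of chondroitin sulfate synthesis, 8 of 9 of shedding and 6 of 13 growth factors. Under the knockout label against WT sham the same counts were 7 of 9, 8 of 17, 10 of 12, 8 of 9 and 7 of 13. The growth factor Fgf9, left out of these counts too, reached 1 FPKM in WT sham alone and could only be lower after infarction. For list counts after rescaling, the shares of all tested genes differ as well: quantile normalization gave 17.4% higher and 18.4% lower in WT MI, and 21.7% and 26% under the knockout label against WT sham. Upper-quartile scaling gave 21.6% and 14.1%, then 27.6% and 19.3%.

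Other receptors of the ligands were 16 genes, of which 11 were tested. In WT MI 7 were called higher and 0 lower. In the pair labelled Card9 KO MI against WT sham 9 were higher and 0 lower. Both counts include Itgb3 and Lrp8. Limma called 0 of 11 between the infarct groups, with 2 at an unadjusted p below 0.05, 0 in the screen, and a median log2 fold change of 0.15. Alk, Ltk, Lrp2, Gpc2 and Cspg5 were below 1 FPKM in all 6 libraries.

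Integrin beta 1 (Itgb1), the most abundant of these receptors, read 113.11 and 107.15 FPKM in WT sham, 215.91 and 198.07 in the WT MI pair, and 235.57 and 225.22 in the pair labelled Card9 KO MI. It was higher in the 4 infarct libraries and rose by 0.90 in WT MI (adjusted p = 0.0003). Lrp1, a large endocytic receptor that binds both ligands, read 16.98 and 15.67 FPKM in WT sham, 46 and 43.59 in the WT MI pair, and 57.1 and 48.04 in the pair labelled Card9 KO MI. Its rise in WT MI was 1.40 (adjusted p = 0.00015), and its difference between the infarct groups, 0.22, was not called (adjusted p = 0.34).

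Integrin beta 3 (Itgb3) pairs with integrin alpha V (Itgav) in a pleiotrophin receptor. Itgb3 read 0.46 and 0.67 FPKM in WT sham, 5.45 and 5.01 in the WT MI pair, and 4.13 and 4.49 in the pair labelled Card9 KO MI. It reached 1 FPKM in infarct libraries alone, so its difference from WT sham, 2.00 in WT MI, is given without a test. Itgav read 3.85 and 3.51, 9.28 and 8.29, and 14.73 and 13.25 in the same order, and rose in WT MI by 1.06 (adjusted p = 0.0011). Under the knockout label Itgav was 0.62 higher than in WT MI and Itgb3 was not, and neither difference passed (adjusted p = 0.084 and 0.53).

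Among other heparan sulfate proteoglycans, a list of 11 genes that also holds Sdc2, 9 were tested. In WT MI 4 were called higher and 1 lower, and under the knockout label 6 were higher and 2 lower than in WT sham; Gpc5 had no value in any library. Under quantile normalization the upward counts were 1 and 3, and with 1 library left out they were 1 to 2 and 4, with 0 to 1 and 1 lower. The glypican Gpc1, the most abundant in the 4 wild-type libraries, read 158.14 and 138.7 FPKM in WT sham, 92.85 and 106.71 in the WT MI pair, and 69 and 84.39 in the pair labelled Card9 KO MI. It fell by 0.57 in WT MI on the log2 scale (adjusted p = 0.012), against the direction of the syndecans. That call was lost without WT sham replicate 1 (adjusted p = 0.069) and without WT MI replicate 1 (adjusted p = 0.09).

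Col18a1, which encodes the basement membrane proteoglycan collagen XVIII, was the 1 gene of that list called between the infarct groups. It read 4.03 and 3.23 FPKM in WT sham, 17.98 and 16.05 in the WT MI pair, and 34.64 and 29.38 in the pair labelled Card9 KO MI. The groups did not overlap, and the log2 fold change between the infarct groups was 0.87 (adjusted p = 0.044). That call was lost in 4 of 4 fits that left out a library, and over all settings the adjusted p ran from 0.027 to 0.23. The screen passed 0 of the 9, and at an unadjusted p below 0.05 there were 4 upward and 2 downward.

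Chondroitin sulfate proteoglycans, several of which bind the ligands through their own chains, were 10 genes with 6 tested. In WT MI 4 were called higher and 0 lower (median 1.63), and under the knockout label 5 were higher and 0 lower than in WT sham (median 1.51). With the infarct groups compared, limma called 0 of 6, with 2 at an unadjusted p below 0.05, 1 in each direction, and 0 in the screen. The hyaluronan receptor Cd44 read 2.84 and 3.19 FPKM in WT sham, 27.78 and 29.03 in the WT MI pair, and 34.55 and 24.26 in the pair labelled Card9 KO MI. It rose by 2.87 in WT MI (adjusted p = 4.2e-05), with overlapping infarct groups. Biglycan (Bgn), with the highest mean over the 6 libraries, read 223.84 and 166.52, 594.37 and 660.45, and 882.24 and 874.95 in the same order and rose in WT MI by 1.69 (adjusted p = 0.00014). The brain proteoglycans Bcan and Ncan, with Acan and Cspg5, stayed below 1 FPKM in all 6 libraries.

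Heparan sulfate synthesis and trimming was covered by 25 genes, 20 of them tested. In WT MI 7 were called higher and 0 lower, and under the knockout label 11 were higher and 1 lower than in WT sham. Under quantile normalization these counts were 6 and 1, then 7 and 1. With 1 library left out, the downward call under the knockout label, Fam20b, was lost in 4 of 4 fits (adjusted p up to 0.10). Under the knockout label against WT MI limma called 0 of 20, with 4 at an unadjusted p below 0.05, all upward, and 0 in the screen. Heparanase (Hpse), which cleaves the chains, read 0.41 and 0.32 FPKM in WT sham, 3.59 and 3.61 in the WT MI pair, and 5.77 and 5.62 in the pair labelled Card9 KO MI. Like Itgb3 it reached 1 FPKM in infarct libraries alone, and its difference of 1.75 between WT MI and WT sham is given without a test. Its difference between the infarct groups, 0.54, did not pass (adjusted p = 0.15). Sulf2, a sulfatase that edits the chains, read 27.5 and 30.21 FPKM in WT sham and between 43.51 and 47.91 in the 4 infarct libraries, with a log2 fold change of 0.00 between the infarct groups (adjusted p = 1.00).

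Chondroitin sulfate synthesis was covered by 16 genes, 13 of them tested, of which 9 were called higher and 0 lower in WT MI. Under the knockout label 11 were higher and 0 lower than in WT sham, or 6 and 0 after quantile normalization. Comparing the infarct groups, limma called 0 of 13, with 2 upward at an unadjusted p below 0.05 and 0 in the screen. Chst11, which adds sulfate to these chains, read 1.98 and 1.41 FPKM in WT sham, 7.2 and 8.64 in the WT MI pair, and 7.64 and 6.4 in the pair labelled Card9 KO MI. It rose by 1.73 in WT MI (adjusted p = 0.00041), and the infarct groups overlapped. Chpf, the most abundant in all 6 libraries, read 11.53 and 8.02, 22.62 and 23.95, and 28.02 and 27.56 in the same order and rose in WT MI by 1.19 (adjusted p = 0.0011).

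Proteases that shed syndecan ectodomains, and their inhibitors, were 11 genes with 10 tested; Mmp7 had no value in any library. In WT MI 9 were called higher and 0 lower, and under the knockout label 9 were higher and 0 lower than in WT sham. Both counts include Mmp9, which reached 1 FPKM in infarct libraries alone. After quantile normalization the counts were 8 and 0, then 6 and 0. When the infarct groups were compared, limma called 0 higher and 2 lower, the screen passed the same numbers, and 1 and 4 had an unadjusted p below 0.05. Quantile normalization gave 1 higher and 2 lower, as did scaling without the 100 most abundant genes. The protease Mmp14 went upward, from 49.13 and 63.26 FPKM in the WT MI pair to 113.18 and 92.56 under the knockout label. Its log2 fold change of 0.86 did not pass (limma, adjusted p = 0.052).

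Mmp9 read 0.69 and 0.51 FPKM in WT sham, 24.91 and 10.15 in the WT MI pair, and 3.26 and 2.94 in the pair labelled Card9 KO MI. Mmp3 read 2.39 and 1.42, 14 and 14.37, and 4.12 and 3.78 in the same order. For both genes the WT MI libraries were the highest. From WT MI to the knockout label Mmp9 fell by 2.05 (adjusted p = 0.045) and Mmp3 fell by 1.62 (adjusted p = 0.017). The first call was lost in 3 of 4 fits that left out a library and the second in 4 of 4, with adjusted p up to 0.17 for each. The inhibitor Timp1 read 5.36 and 5.24 FPKM in WT sham, 299.16 and 253.84 in the WT MI pair, and 239.26 and 196.87 in the pair labelled Card9 KO MI, and rose by 5.46 in WT MI (adjusted p = 9.9e-07). Timp3, also an inhibitor, rose by 0.34 in WT MI (limma, adjusted p = 0.034), so the upward calls there include inhibitors as well as proteases.

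Intracellular partners of the syndecans and of the receptors were 12 genes, all tested. In WT MI 4 were called higher and 0 lower, and under the knockout label 7 were higher and 0 lower than in WT sham, or 4 and 1 after upper-quartile scaling. Of the 12, limma called 0 between the infarct groups, with 2 upward at an unadjusted p below 0.05 and 0 in the screen. Rhog, a small GTPase that acts downstream of syndecan-4, read 18.72 and 19.26 FPKM in WT sham, 65.87 and 64.48 in the WT MI pair, and 84.37 and 76.09 in the pair labelled Card9 KO MI. It rose by 1.73 in WT MI (adjusted p = 3.4e-05), and the infarct groups differed by 0.29 with an adjusted p of 0.16. Beta-catenin (Ctnnb1), a substrate in the Ptprz1 pathway, was the most abundant of the list and read 103.12 and 99.28 FPKM in WT sham, 102.82 and 105.01 in the WT MI pair, and 131.81 and 126.34 in the pair labelled Card9 KO MI. Its difference between the infarct groups, 0.31, did not pass (adjusted p = 0.11).

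Nucleolar partners of nucleolin were 22 genes, all tested. In WT MI 15 were called higher and 0 lower (median 0.66), and under the knockout label 13 were higher and 0 lower than in WT sham (median 0.46). After quantile normalization these counts were 10 and 0, then 9 and 5, the latter beside 21.7% higher and 26% lower among all genes. No nucleolar gene was called by limma between the infarct groups (0 of 22), with 0 upward and 2 downward at an unadjusted p below 0.05 and 0 in the screen. Npm1, the most abundant, read 87.86 and 77.44 FPKM in WT sham, 202.04 and 193.85 in the WT MI pair, and 230.09 and 182.32 in the pair labelled Card9 KO MI. Like Ncl it rose in WT MI, by 1.25 (adjusted p = 0.00032), and overlapped between the infarct groups. The transcription factor Myc, known to drive nucleolar genes, read 4.74 and 3.43, 21.49 and 21.35, and 20.76 and 17.41 FPKM in the same order and rose by 2.15 (adjusted p = 9.9e-05).

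Other heparin-binding growth factors, which share the chains with the ligands, were 17 genes with 15 tested. In WT MI 7 were called higher and 1 lower, and under the knockout label 8 were higher and 3 lower than in WT sham; after quantile normalization these were 4 and 2, then 4 and 3. With 1 library left out the upward counts ran from 4 to 8 and from 4 to 7. Of the 3 lower calls 1 is Fgf9, which could only be lower. Placental growth factor (Pgf) was the 1 gene called between the infarct groups. It read 3.03 and 2.63 FPKM in WT sham, 23.1 and 20.31 in the WT MI pair, and 11.69 and 9.08 in the pair labelled Card9 KO MI. Like Mmp9, it was highest in the WT MI pair, and between the infarct groups it fell by 1.00 (adjusted p = 0.039), a call lost in 4 of 4 fits that left out a library (adjusted p from 0.025 to 0.28 over all settings). Over the list, 2 upward and 3 downward differences between the infarct groups had an unadjusted p below 0.05, and the screen passed 0 upward and 1 downward. Vegfa, at 187.59 and 163.96 FPKM in WT sham, 107.14 and 109.94 in the WT MI pair, and 95.66 and 122.11 in the pair labelled Card9 KO MI, fell by 0.69 in WT MI (adjusted p = 0.0053). Ccn2, with the highest mean over the 6 libraries, read 43.03 and 34.96, 273.08 and 226.72, and 291.64 and 282.26 in the same order and rose in WT MI by 2.65 (adjusted p = 2.3e-05).

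**Figure D4:**
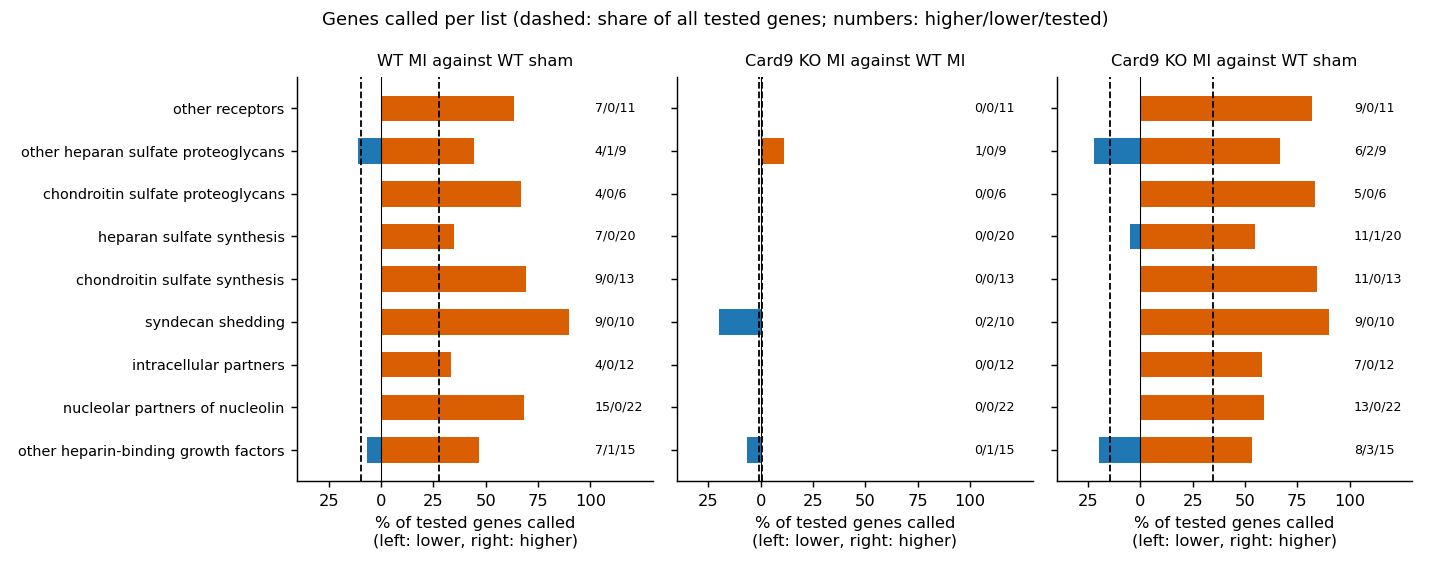
Percent of the tested genes of each pathway list that limma called higher (right) and lower (left) in the 3 comparisons, with the numbers called higher, called lower and tested beside each bar; dashed lines give the percent of all tested genes called. In the WT MI pair against WT sham 15 of 22 nucleolar genes and 4 of 12 intracellular partners are called higher, beside 27.7% of all tested genes. Between the infarct groups there are 1 upward, 2 downward and 1 downward call in the lists of other proteoglycans, shedding and growth factors.

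Cell type markers moved beside these genes. The part of cell composition in any result above was not tested. Of 12 cardiomyocyte markers, 0 were called higher and 9 lower in the WT MI pair, and 12 of 12 were lower under the knockout label than in WT sham; quantile normalization gave 1 higher and 8 lower, then 1 higher and 9 lower. Actc1, the most abundant in the 4 infarct libraries but below Mb and Myl2 in WT sham, read 10230 and 9931.06 FPKM in WT sham, 7909.54 and 8909.94 in the WT MI pair, and 6904.7 and 8531.3 in the pair labelled Card9 KO MI. Its fall against WT sham under that label, -0.39 (adjusted p = 0.042), turned to 0.49 after quantile normalization and was lost in 3 of 4 fits that left out a library. Limma called 0 of 12 muscle markers between the infarct groups, with 5 downward at an unadjusted p below 0.05 and 0 in the screen.

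The fibroblast sums were highest under the knockout label. The summed level of 10 fibroblast genes was 544 and 521 FPKM in WT sham, 1411 and 1876 in the WT MI pair, and 2709 and 2583 in the pair labelled Card9 KO MI. That of 8 activated fibroblast genes was 85.1 and 87.9, 484 and 529, and 1201 and 1160 in the same order. In both sums the 3 groups were apart. In WT MI 8 of 10 and 7 of 8 were called higher and 0 lower, and under the knockout label 9 of 10 and 8 of 8 were higher than in WT sham. Of the 8, Comp, Fap and Cthrc1 reached 1 FPKM in infarct libraries alone and could only be higher there; of the others 5 of 5 were called higher in both comparisons. Between the infarct groups 2 of 10 and 3 of 8 were called higher and 0 lower, and the screen passed the same numbers. At an unadjusted p below 0.05 there were 5 upward and 1 downward of 10, and 6 and 0 of 8. All markers of both lists had values in each library.

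Single genes of the first list differed from its sum. Pdgfra read 7.25 and 8.15 FPKM in WT sham, 15.2 and 15.87 in the WT MI pair, and 10.64 and 10.43 in the pair labelled Card9 KO MI, where it was 0.52 lower than in WT MI (adjusted p = 0.094). Dcn was called in none of the 3 comparisons.

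Col1a1 had the highest mean of the first list over the 6 libraries. It was below Dcn and Col3a1 in WT sham and below Col3a1 in WT MI replicate 1. Col1a1 read 45.4 and 41.05 FPKM in WT sham, 359.07 and 515.63 in the WT MI pair, and 931.6 and 870.28 in the pair labelled Card9 KO MI. Postn, the most abundant of the second list in the 4 infarct libraries, read 24.64 and 16.85, 183.74 and 240.89, and 625.98 and 627 in the same order. Both genes were thus highest under the knockout label, as were Mdk and Ptn, the latter picked for being highest there. Comparing the infarct groups, Col1a1 rose by 1.06 (adjusted p = 0.034) and Postn by 1.57 (adjusted p = 0.016), and these calls were lost in 3 and 4 of 4 fits that left out a library, with adjusted p up to 0.16 and 0.15. The same held for Col1a2 (1.09, adjusted p = 0.027), Cthrc1 (1.66, adjusted p = 0.015) and Acta2 (1.19, adjusted p = 0.039), lost in 3, 3 and 4 of 4.

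Macrophage markers, 12 genes, summed to 281 and 249 FPKM in WT sham, 842 and 1055 in the WT MI pair, and 1884 and 1366 in the pair labelled Card9 KO MI. That sum too was highest under the knockout label, and 9 of 12 were called higher and 0 lower in WT MI, and 9 higher and 1 lower under that label against WT sham. C1qb, the most abundant in 5 of 6 libraries, read 75.39 and 68.53 FPKM in WT sham, 218.04 and 261 in the WT MI pair, and 491.12 and 364.49 in the pair labelled Card9 KO MI. In the infarct comparison limma called 0 of 12 higher (2 after quantile normalization) and 1 lower, with 7 and 2 at an unadjusted p below 0.05 and 1 and 1 in the screen. The 1 called lower, Lyve1, read 12.2 and 11.72, 12.57 and 14.38, and 4.7 and 6.84 FPKM in the group order used above. It fell by 1.11 (adjusted p = 0.037), a call lost in 4 of 4 fits that left out a library (adjusted p up to 0.20).

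Between the infarct groups the neutrophil sum went the other way. The summed level of 9 genes was 7.64 and 5.4 FPKM in WT sham, 212 and 93.1 in the WT MI pair, and 59.8 and 46.7 in the pair labelled Card9 KO MI; Ly6g and Camp had no value in any library and Ngp was below 1 FPKM. The sum was highest in WT MI, as Sdc4, Mmp9 and Pgf were. S100a9, the most abundant in 5 of 6 libraries, read 2.06 and 0.72 FPKM in WT sham, 94.04 and 39.24 in the WT MI pair, and 21.21 and 14.73 in the pair labelled Card9 KO MI. Of 6 tested genes, Mmp8 and Retnlg reached 1 FPKM in infarct libraries alone and could only be higher there. The other 4 were called higher in WT MI and under the knockout label against WT sham. From WT MI to the knockout label limma called 0 of 6, with 2 downward at an unadjusted p below 0.05 and 2 downward in the screen.

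**Figure D5:**
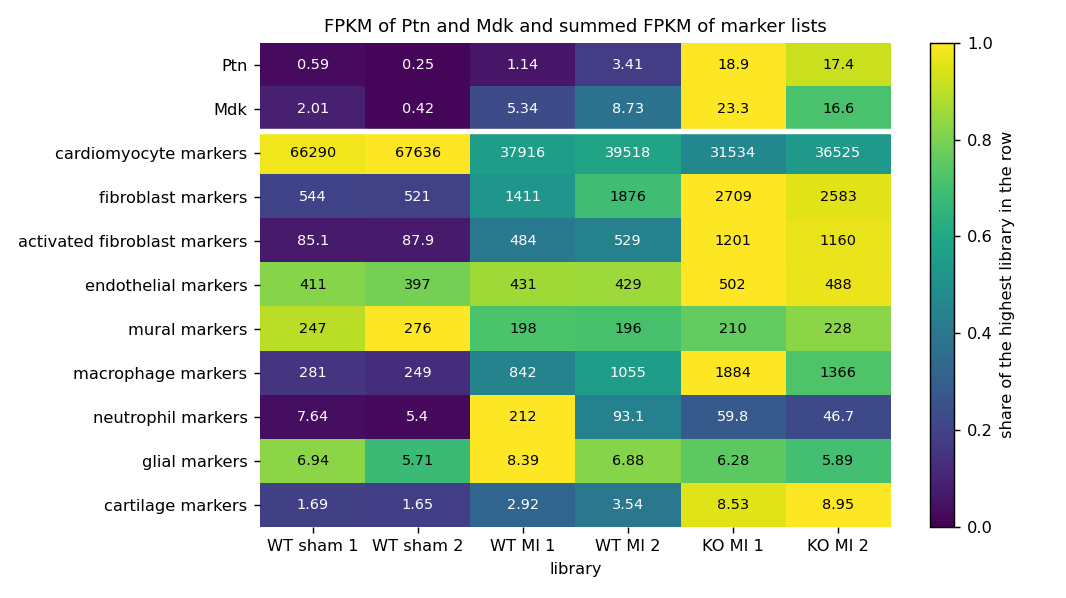
FPKM of Ptn and Mdk, and summed FPKM of 9 marker lists, printed for each of the 6 libraries, with color giving the share of the highest library of the same gene or list. The activated fibroblast sum (85.1 to 1201) and the macrophage sum (249 to 1884) are highest in the pair labelled Card9 KO MI, and the neutrophil sum is highest in WT MI (212 and 93.1).

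Cartilage markers were looked at because pleiotrophin is known from cartilage. Of 7 genes, Sox9 was the most abundant and the 1 tested, and Col2a1, Acan, Chad, Matn1, Matn3 and Hapln1 were below 1 FPKM in all 6 libraries. Summed, the list read 1.69 and 1.65 FPKM in WT sham, 2.92 and 3.54 in the WT MI pair, and 8.53 and 8.95 in the pair labelled Card9 KO MI. Sox9 alone read 1.44 and 1.18, 2.72 and 2.98, and 7.44 and 7.29 in the same order. The sum is therefore mostly Sox9, a gene that other cells also express. Sox9 rose by 0.74 in WT MI (adjusted p = 0.012), a call lost after quantile normalization (0.40, adjusted p = 0.11), without WT sham replicate 2 and without WT MI replicate 2. It rose by 1.12 between the infarct groups (adjusted p = 0.034), a call lost in 4 of 4 fits that left out a library (adjusted p up to 0.23).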

How the data were processed

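Total RNA from heart tissue below the ligature was made into oligo(dT)-selected TruSeq libraries and sequenced on an Illumina instrument, and the authors mapped reads to mm9 with BWA and Bowtie2. The deposited values are FPKM, normalised by the authors, 1 per gene with a value above 0; a missing gene was set to 0. Annotation and strandedness are not given in the sources used here. Members and lists were chosen with earlier results of these data known.

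Differences were taken on log2(FPKM + 1). Genes with at least 1 FPKM in at least 2 libraries were fitted in 1 model of 3 groups with limma 3.58.1 (trend, two-sided) in R 4.3.3, with Benjamini-Hochberg adjustment over all 13120 genes and a threshold of 0.05. The fit was tested on simulated data. An exact permutation test of 2 against 2 libraries cannot go below p = 0.333 and was not used. The screen, written after the authors' tool, set values of 0 to 0.005. Gene positions come from GENCODE vM1. Depth was estimated from the spacing of low FPKM values times transcript length; between 74.2% and 78% of low values came out whole (tolerance 0.15), so no counts were rebuilt.

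List genes were eligible to be named, in each list, as the called gene with the largest rise and fall in each comparison whose libraries did not overlap, the gene with the highest mean FPKM over the 6 libraries, and up to 2 more by size of change. The text names part of these, picked with their values known, and other list genes named were chosen after their values were seen. Alternatives tried were 0.1 or 5 added before the logarithm, no filter, a mean of at least 5 FPKM, the 3 rescalings, a fit of only the groups compared, no trend, the replicate number as a block, the screen, and leaving out each library. Settings for Card9, list genes and marker counts were added after seeing the data. Proteins were not compared, for want of a sequence table.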

Additional observations from a re-analysis of the deposited data

How the results depend on the processing

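With 2 libraries a group, a fit that leaves out 1 assumes that the lone library varies like the others. Low FPKM values rest on few fragments, and the count of all genes called between the infarct groups moved with most settings. Against WT sham, members called stayed at 5 of 5 for both infarct groups in all limma settings (4 of 6 in the screen, which also covered Ptprz1). Between the infarct groups, members called were 2 with 5 added before the logarithm, 1 with a mean of at least 5 FPKM, 1 in the screen, and 0 to 0 with a library left out. Replicate numbers as a block gave 5, 0 and 5 members and 4651, 71 and 6241 genes in all; replicate differences correlated between groups at 0.00, -0.01 and 0.02.

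All genes called were 4869 in WT MI against WT sham, 1177 in the screen, and 3833, 3405, 2883 and 3194 without WT sham replicate 1, WT sham replicate 2, WT MI replicate 1 and WT MI replicate 2. Between the infarct groups they were 184, with 80 (0.1 added), 312 (5 added), 12 (no filter), 284 (mean of at least 5 FPKM), 101 (only these groups), 58 (no trend) and 71 (replicate block), and 10, 20, 15 and 8 without WT MI replicate 1, WT MI replicate 2, Card9 KO MI replicate 1 and Card9 KO MI replicate 2. For the pair labelled Card9 KO MI against WT sham they were 6444, with 1788 in the screen and 4465 to 5504 with a library left out.

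With a library left out the difference between the infarct groups ran from -0.40 to 0.01 for Sdc1 and from -0.19 to 0.02 for Ncl, turning upward without Card9 KO MI replicate 2, and quantile normalization turned Actc1 to 0.49 in the pair labelled Card9 KO MI against WT sham; the cause was not tested. List counts stayed within 1.5 times in 231, 223 and 217 of 252 recomputations per comparison, and marker list counts in 270, 269 and 286 of 308. Calls of named list genes held in 1002 of 1082, 88 of 166 and 1168 of 1249.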

Other observations

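Endothelial markers (10 genes, Cdh5 the most abundant) summed to 411 and 397 FPKM in WT sham, 431 and 429 in the WT MI pair, and 502 and 488 in the pair labelled Card9 KO MI. In WT MI 3 were called higher and 1 lower, or 0 and 3 after upper-quartile scaling and 0 to 2 and 1 with a library left out, and under the knockout label 4 were higher and 1 lower than in WT sham. Comparing the infarct groups, limma called 0 of 10, with 3 upward at an unadjusted p below 0.05 and 0 in the screen. Mural markers (8 genes, Rgs5 the most abundant) summed to 247 and 276, 198 and 196, and 210 and 228 FPKM in the same order, with 2 higher and 3 lower in WT MI (1 and 3 after quantile normalization) and 5 and 3 under the knockout label against WT sham (3 and 3). With 1 library left out the upward counts ran from 1 to 2 and from 3 to 5. Limma called 0 of 8 between the infarct groups (5 at an unadjusted p below 0.05, 0 in the screen).

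Epicardial markers (9 genes, 3 tested, Wt1 the most abundant, Muc16 without a value) summed to 6.65 and 8.82 FPKM in WT sham, 12.3 and 8.68 in the WT MI pair, and 8.03 and 6.78 in the pair labelled Card9 KO MI. Glial markers (8 genes, 3 tested, Mbp the most abundant after infarction) summed to 6.94 and 5.71, 8.39 and 6.88, and 6.28 and 5.89. Adipocyte markers (6 genes, 2 tested, Cfd the most abundant in 5 of 6 libraries, Lep without a value) summed to 5.34 and 4.25, 16 and 3.36, and 0.99 and 10.3, so replicates of 1 group differed more than the groups did. Calls were 1 higher of 3 epicardial genes and 1 higher and 1 lower of 3 glial genes in the WT MI pair, and 1 higher in each list under the knockout label against WT sham. Mbp reached 1 FPKM in infarct libraries alone and could only be higher there. In WT MI the call of Tbx18 was lost in 4 of 4 fits that left out a library, that of Erbb3 in 4 of 4 and that of Mbp in 2; under the knockout label those of Tbx18 and Mbp were lost in 1 and 3. Quantile normalization ended the Tbx18 call in both comparisons. For the infarct groups limma called 0 in these 3 lists, with 1 epicardial gene at an unadjusted p below 0.05 and 0 in the screen; of the adipocyte genes 0 reached that p in any comparison.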
